A study of Mus musculus with 45 samples.

Results

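Cells of the E14.5 mouse cortex were compared with cells of the E11.5 cortex in gene expression at 0 h of the chase, in 6 of the 45 libraries of the series (3 against 3). Both groups were wild type (WT), and each library, A, B or C, came from its own pool of embryos, 7 embryos for a pool at E11.5 and 2 at E14.5. The cortices were dissociated with trypsin, with a longer step for the E14.5 tissue, and the cells were left to attach and then grown for 20 h with 100 uM 4-thiouridine (4sU), a labelled building block of RNA, in medium for neural progenitors with bFGF. They were lysed when uridine was added, so "0 h" is a time after culture and labelling, and both groups carry the label. Of the 53491 genes in the tables, the 12810 with more than 500 covered T positions in all 6 libraries are described. Among them 10986 are annotated as protein coding and 1253 as processed pseudogenes, whose reads can come from their parent genes, and 189 had no entry in the annotation used.

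Reads per library ranged from 19143575 to 23607341 at E11.5 and from 27765868 to 42989039 at E14.5, so the later stage was sequenced more deeply. The 12810 genes held 99.3% of the reads in each table. The fewest reads for any of them in a library were 27, and for the median gene 611. Across genes, log2 read levels of 2 libraries correlated with r of 0.991 to 0.995 within a stage and of 0.921 to 0.933 between stages, a description over genes that share libraries. Nothing in the labels says how many litters the pools came from, and p-values measure the spread between these 3 pools. The cortical markers Emx1, Emx2, Lhx2, Pax6 and Neurod6 passed the coverage minimum in all 6 libraries. So did Dlx2, a gene of interneurons born outside the cortex, and the fibroblast gene Col3a1. Passing the minimum therefore cannot tell cortex from other tissue.

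In the mouse cortex the wall of the neural tube is at first a sheet of dividing neuroepithelial cells, which become radial glia. Radial glia divide to renew themselves and give rise to neurons, directly or through intermediate progenitors, and the first neurons settle as the preplate and the deep layers before those of the upper layers are born. Neurons leave the cell cycle, grow an axon and later build synapses, while radial glia change their own gene expression with time and turn to glia at the end of the period. In bulk samples such as these fewer cells of a type and less RNA per cell cannot be told apart.

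Across the 12810 genes, 805 were called higher at E14.5 and 710 were called lower, which is 6.28% and 5.54%. Called here means an adjusted p under 0.05 in edgeR's quasi-likelihood test on covered-T counts together with a change of more than 2-fold, and all adjusted p-values below are from that test. At any size of change, 3474 genes (27.1%) rose and 3166 (24.7%) fell, and 6170 did not pass the test. The median log2 fold change was 0.00, and the quartiles were -0.30 and 0.32. Changes ran from -7.22 to 6.09 on the log2 scale, but 588 of the 805 higher and 584 of the 710 lower genes changed by less than 4-fold. Over all 18856 genes that could be fitted, with the low ones included, 1465 (7.77%) were called higher and 1540 (8.17%) lower.

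Levels are given below in CPM, the deposited reads of a gene per 1000000 reads, libraries A, B and C in that order, and changes on the log2 scale. For each gene given below with its fold change and error that passed the test, the 3 libraries of one stage lay wholly above those of the other. Genes called higher took 2.94 to 3.18% of the reads of the 12810 genes at E11.5 and 9.70 to 10.1% at E14.5. Those called lower took 5.98 to 6.81% and 1.96 to 2.28%. The libraries of the 2 stages did not overlap for 803 of the 805 higher and 708 of the 710 lower genes, and for 61.8% of all 12810. The minimum of 500 covered Ts was met by 425 more genes in all E14.5 libraries and no E11.5 library, and by 194 the other way round. The part of the deeper sequencing at E14.5 in these numbers was not tested. Among the fitted genes below the minimum, 660 were called higher and 830 lower.

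**Figure D1:**
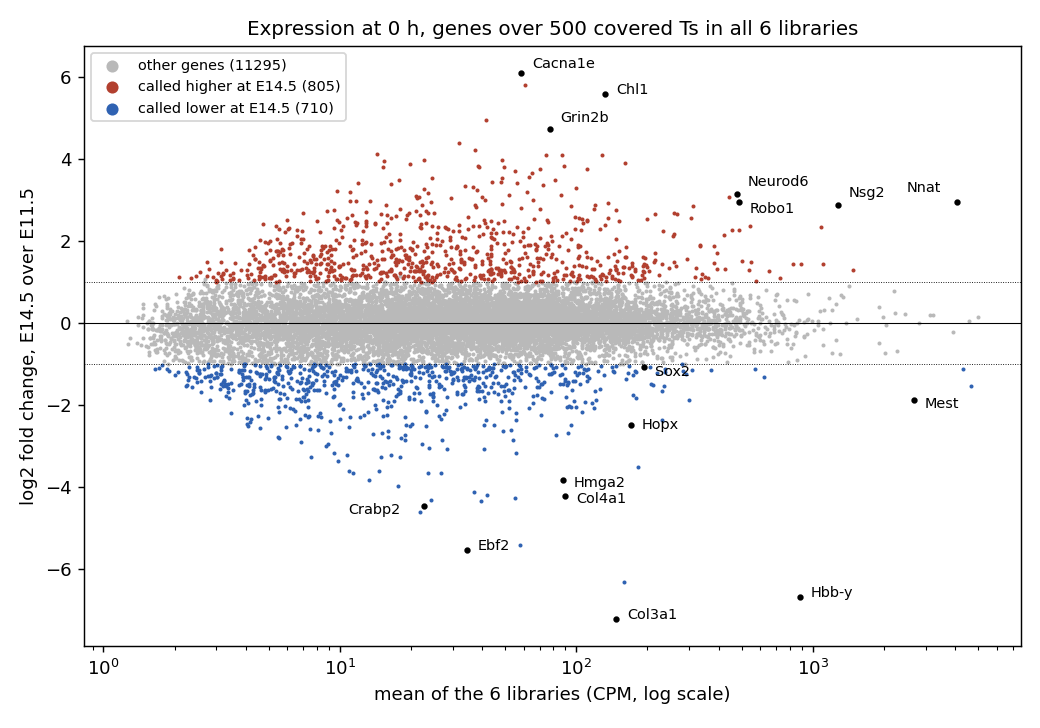
Log2 fold change of E14.5 over E11.5 (vertical axis) against the mean of the 6 libraries in CPM (horizontal axis, log scale) for each of the 12810 genes, with some named genes in black. Red points are the 805 genes called higher, blue points the 710 called lower and grey points the rest, and dotted lines mark a 2-fold change. The extremes, Cacna1e at 6.09 and Col3a1 at -7.22, lie far outside the bulk of called genes, most of which changed less than 4-fold.

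Messages of neurons rose across several functional groups. Transcription factors and RNA-binding proteins linked to neuronal differentiation, Rest and Ptbp1 among them, were taken as a list of 36 genes. All of these passed the coverage minimum. Of these, 12 were called higher and 2 lower, 23 rose and 6 fell at any size, and their median log2 fold change was 0.51 against 0.00 for all genes. Neurod6, a transcription factor of cortical projection neurons, had 97.2, 105 and 98.6 CPM at E11.5 and 939.8, 770.5 and 863 at E14.5 (log2 fold change 3.16 ± 0.09 (standard error, as after each ± below), adjusted p = 3.61e-10). Bhlhe22, another basic helix-loop-helix factor of projection neurons, had 43.5, 41.98 and 37.8 CPM at E11.5 and 245, 258 and 253 at E14.5 (log2 fold change 2.75 ± 0.08, adjusted p = 3.37e-10). Rbfox1, a splicing factor of neurons, had 7.39, 8.03 and 6.38 CPM at E11.5 and 75, 67.9 and 64.01 at E14.5 (log2 fold change 3.24 ± 0.11, adjusted p = 7.91e-10). In all 3 genes the E14.5 libraries lay far above those of E11.5, with no overlap.

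The factors did not all move together. Neurod2, a relative of Neurod6, rose less, with 115, 126 and 111 CPM at E11.5 and 299.9, 279 and 226 at E14.5 (log2 fold change 1.23 ± 0.10, adjusted p = 1.13e-06). Neurod1, which acts earlier in the same series, had 51.4, 48.6 and 56.02 CPM at E11.5 and 70.6, 62.6 and 58.1 at E14.5 (log2 fold change 0.33 ± 0.10, adjusted p = 0.0141), and without library A of E11.5 or of E14.5 it missed the threshold (adjusted p = 0.0609 and 0.0906). The 2 called lower were Nhlh1 and Nhlh2, factors of newly born neurons. Nhlh1 had 82.5, 76.3 and 123 CPM at E11.5 and 17.8, 17.97 and 16.7 at E14.5 (log2 fold change -2.36 ± 0.16, adjusted p = 2e-07), and library C of E11.5 was the highest. Nhlh2 changed by -1.45 ± 0.14 (adjusted p = 3.98e-06).

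Genes of the neuronal cytoskeleton and growth cone rose as a group, with 43 of 54 rising, 6 falling and a median log2 fold change of 0.72. Of these, 18 were called higher and 1 lower. Nsg2, an endosomal protein of neurons, had 286, 317 and 343 CPM at E11.5 and 2317, 1867 and 2526 at E14.5 (log2 fold change 2.89 ± 0.12, adjusted p = 2.88e-09). Mapt, which encodes the microtubule-binding protein tau, had 87.3, 89.8 and 99.9 CPM at E11.5 and 532, 518 and 503 at E14.5 (log2 fold change 2.57 ± 0.08, adjusted p = 5.52e-10). Stmn4, a stathmin, rose by 2.59 ± 0.09 on the log2 scale (adjusted p = 7.91e-10). The tubulins often used as neuronal markers moved far less. Tubb3 had 878, 1037 and 1092 CPM at E11.5 and 1349.6, 1152 and 1168 at E14.5 (log2 fold change 0.32 ± 0.10, adjusted p = 0.0207), and missed the threshold without library A of E11.5 (adjusted p = 0.116) or of E14.5 (0.0983) and at 2 h of chase (0.0865). Tuba1a, whose exons overlap another gene, changed by 0.39 ± 0.09 (adjusted p = 0.00422). The single gene called lower was Dpysl4, a member of the family of collapsin response mediators, at -1.58 ± 0.10 (adjusted p = 1.24e-07).

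Synaptic genes had the highest median of all function lists. Of 58 genes for synaptic vesicles and exocytosis, 57 passed the coverage minimum, and 33 of these (57.9%) were called higher against 6.28% of all genes. A further count at any size gave 46 rising and 5 falling, with a median log2 fold change of 1.18. Relative to each gene's mean over the 6 libraries, the median of the list was -0.66, -0.63 and -0.51 on the log2 scale in the E11.5 libraries and 0.61, 0.65 and 0.53 in those of E14.5. The E11.5 libraries therefore lay close together and far from the E14.5 libraries.

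Snap25, a SNARE protein of the presynaptic membrane, had 26.2, 24 and 19.8 CPM at E11.5 and 165, 149 and 183 at E14.5 (log2 fold change 2.85 ± 0.11, adjusted p = 1.9e-09). Cplx1, which encodes complexin 1, a clamp of vesicle fusion, had 8.21, 8.75 and 9.04 CPM at E11.5 and 80.8, 68.8 and 63.1 at E14.5 (log2 fold change 3.08 ± 0.12, adjusted p = 1.88e-09). Syn1, which tethers vesicles, had 27.3, 31.7 and 35.2 CPM at E11.5 and 91.8, 94.1 and 73.4 at E14.5 (log2 fold change 1.57 ± 0.12, adjusted p = 6.3e-07). Syp, a major protein of the vesicle membrane, overlaps another gene and changed by 1.39 ± 0.10 (adjusted p = 2.63e-07). Genes for the SNARE machinery, for its regulators and for the vesicle membrane were thus among those that rose. Of the 57 genes, 5 fell at any size and 6 did not pass the test. Of those that fell, 2 were called lower. Cadps2, which primes dense-core vesicles, had 83.6, 75.5 and 80.05 CPM at E11.5 and 3.14, 3.298 and 5.74 at E14.5 (log2 fold change -4.21 ± 0.20, adjusted p = 1.16e-08), and Syt13, an atypical synaptotagmin, had 87.2, 101 and 65.4 CPM at E11.5 and 11.1, 17.1 and 11.3 at E14.5 (log2 fold change -2.63 ± 0.18, adjusted p = 2.49e-07).

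Postsynaptic and adhesion genes were more mixed in coverage, since 65 of 85 passed the minimum. Of the 65, 29 were called higher and 5 lower (median log2 fold change 0.74), and of the 20 below it 10 were called higher and 3 lower. Grin2b, an NMDA receptor subunit, had 6.298, 5.43 and 5.998 CPM at E11.5 and 143, 148 and 154 at E14.5 (log2 fold change 4.72 ± 0.09, adjusted p = 5.88e-11). Gria1, an AMPA receptor subunit, had 7.04, 5.87 and 7.31 CPM at E11.5 and 94.3, 84.7 and 96.9 at E14.5 (log2 fold change 3.81 ± 0.12, adjusted p = 4.25e-10). Dlg2, a scaffold that anchors such receptors, had 2.43, 2.45 and 3.88 CPM at E11.5 and 64.4, 54.4 and 64.6 at E14.5 (log2 fold change 4.38 ± 0.17, adjusted p = 1.91e-09). The stages did not overlap in any of the 3 genes.

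Other NMDA receptor subunits moved by different amounts. Grin1, the obligatory subunit, overlaps another gene and changed by 1.31 ± 0.14 (adjusted p = 9.4e-06), while Grin2a, below the coverage minimum, had 0.196, 0.24 and 0.461 CPM at E11.5 and 8.62, 7.92 and 9.85 at E14.5 (log2 fold change 4.99 ± 0.32, adjusted p = 1.14e-07). Among the genes called lower was Camk2a, a kinase of the postsynaptic density, with 119, 97.5 and 128 CPM at E11.5 and 36.05, 23.8 and 32.8 at E14.5 (log2 fold change -1.86 ± 0.15, adjusted p = 7.63e-07), and its relative Camk2d changed by -1.57 ± 0.12 (adjusted p = 4.54e-07). Cbln2, a secreted organiser of synapses, changed by -2.82 ± 0.17 (adjusted p = 7.54e-08).

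Voltage-gated ion channels included the largest rise among the 12810 genes. Of 59 genes, 41 passed the coverage minimum, 20 of these were called higher and 2 lower, and of the 18 others 12 were called higher. Cacna1e, a calcium channel of the R type, had 1.88, 1.54 and 1.73 CPM at E11.5 and 133, 99.7 and 114 at E14.5 (log2 fold change 6.09 ± 0.14, adjusted p = 1.23e-10). Scn2a, a sodium channel, had 4.89, 4.66 and 5.65 CPM at E11.5 and 25.6, 23.7 and 30.6 at E14.5 (log2 fold change 2.45 ± 0.13, adjusted p = 2.84e-08). Kcnn2, a calcium-activated potassium channel, had 5.24, 4.38 and 4.15 CPM at E11.5 and 36.5, 36.01 and 39.99 at E14.5 (log2 fold change 3.09 ± 0.11, adjusted p = 1.21e-09). The calcium channel Cacna1g, of the T type, went the other way with 10.9, 11.1 and 11.1 CPM at E11.5 and 2.23, 3.33 and 3.09 at E14.5 (log2 fold change -1.81 ± 0.19, adjusted p = 1.05e-05). The potassium channel Kcnd2 was called lower too (log2 fold change -1.10 ± 0.11, adjusted p = 5.93e-06). A sodium channel, a calcium channel and the calcium-activated potassium channel Kcnn2 were thus among the genes that rose. The calcium channel Cacna1g and the potassium channel Kcnd2 were called lower. At any size 26 of the 41 genes rose and 6 fell.

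Axon guidance genes split into both directions. Of 78 ligands and receptors, 69 passed the minimum, 19 were called higher (27.5%) and 8 lower (11.6%), both above the shares of all genes, and the median was 0.04 and turned to -0.01 with upper-quartile scaling. Chl1, an adhesion molecule close to L1, had 5.16, 5.097 and 6.46 CPM at E11.5 and 267, 238 and 272 at E14.5 (log2 fold change 5.58 ± 0.13, adjusted p = 1.23e-10). Robo1, a receptor for Slit proteins, had 119, 107 and 128 CPM at E11.5 and 901, 868 and 809 at E14.5 (log2 fold change 2.94 ± 0.09, adjusted p = 5.38e-10). Cntn2, a contactin on growing axons, had 84.8, 90.6 and 118 CPM at E11.5 and 752, 809.8 and 794 at E14.5 (log2 fold change 3.07 ± 0.12, adjusted p = 2.63e-09). These are receptors and adhesion molecules of the axon surface, and they were named because they are the 3 largest rises of the list. At any size 30 of the 69 genes rose and 20 fell.

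Among the secreted cues, Sema3a rose, with 25.4, 27.03 and 29.3 CPM at E11.5 and 103, 90.96 and 100.3 at E14.5 (log2 fold change 1.89 ± 0.09, adjusted p = 1.27e-08), and Sema3e fell, with 46.7, 42.2 and 48.1 CPM at E11.5 and 8.64, 9.696 and 10.7 at E14.5 (log2 fold change -2.21 ± 0.11, adjusted p = 1.31e-08). Ntn4, a netrin of basement membranes, changed by -1.56 ± 0.13 (adjusted p = 1.31e-06). Among the receptors, the ephrin receptor Epha2 fell, by -2.05 ± 0.23 (adjusted p = 1.5e-05). The study's own list of 57 genes enriched in neurons, chosen there from single-cell data, had 24 called higher and 0 lower, with 51 rising and 3 falling and a median of 0.91.

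**Figure D2:**
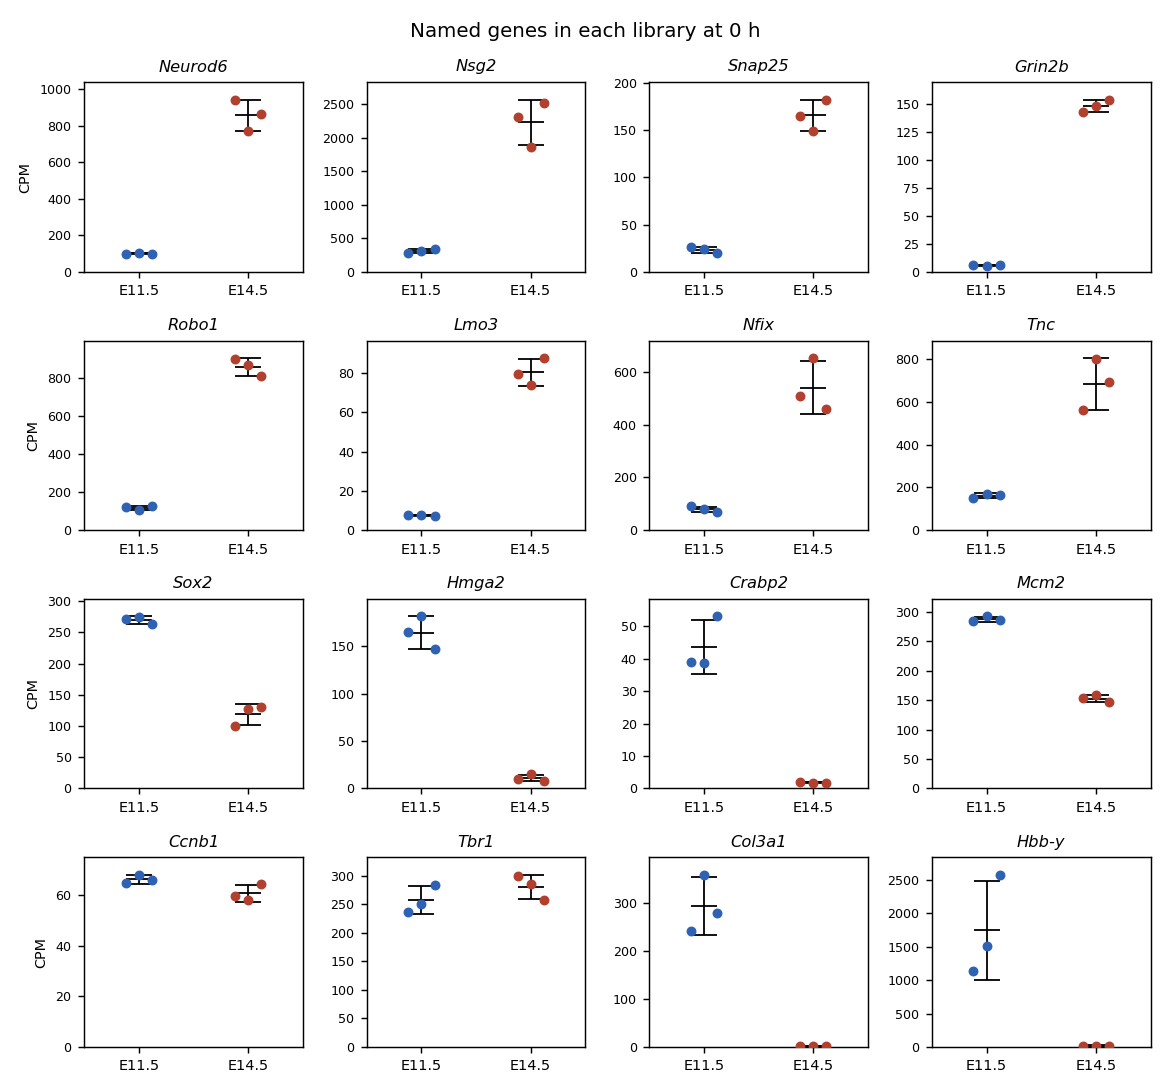
CPM, reads per 1000000 reads (vertical axes, from 0) of 16 named genes in each of the 3 libraries of E11.5 (blue) and E14.5 (red), with the mean and the standard deviation in black. The neuronal genes of the upper row are several times higher at E14.5, Ccnb1 and Tbr1 did not pass the test, and Col3a1 and Hbb-y are close to 0 at E14.5.

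Neurons of the cortical layers were read from their markers. Of 24 deep-layer genes 19 passed the minimum, with 8 called higher and 0 lower and a median log2 fold change of 0.62, which was 0.34 with a minimum of 2000 covered Ts. Lmo3, a LIM-only cofactor, had 7.55, 7.55 and 7.38 CPM at E11.5 and 79.5, 74.1 and 87.6 at E14.5 (log2 fold change 3.43 ± 0.09, adjusted p = 2.64e-10). Ldb2, its binding partner in LIM complexes, had 4.46, 4.81 and 5.04 CPM at E11.5 and 47.3, 30.01 and 38.5 at E14.5 (log2 fold change 3.07 ± 0.16, adjusted p = 2.13e-08), and Bcl11b, which specifies neurons that project below the cortex, had 120.2, 118 and 126 CPM at E11.5 and 261, 263 and 244 at E14.5 (log2 fold change 1.18 ± 0.08, adjusted p = 1.26e-07). Tbr1, a factor of the earliest deep-layer neurons, had 236, 250.3 and 284 CPM at E11.5 and 299.6, 285 and 258 at E14.5, and the stages overlapped (log2 fold change 0.19 ± 0.10, adjusted p = 0.133). Leaving out library C of E11.5, Tbr1 passed the test with a log2 fold change of 0.30 (adjusted p = 0.0266).

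Upper-layer genes had a median of 0.84, with 8 of 23 called higher and 3 lower. Pou3f1, a POU-domain factor of these neurons, had 4.42, 5.29 and 3.92 CPM at E11.5 and 24.6, 23.8 and 22.6 at E14.5 (log2 fold change 2.44 ± 0.15, adjusted p = 7.55e-08) and the netrin receptor Unc5d had 14.7, 13.5 and 19.7 CPM at E11.5 and 80.7, 57.5 and 76.2 at E14.5 (log2 fold change 2.20 ± 0.16, adjusted p = 3.8e-07). Cux1, named for the upper layers but found in progenitors too, had 171, 154 and 172 CPM at E11.5 and 153, 146 and 138 at E14.5 (log2 fold change -0.16 ± 0.08, adjusted p = 0.138). The 3 genes called lower were the adhesion molecule Nectin3 at -2.06 ± 0.08 (adjusted p = 1.88e-09), Ptprk and Frmd4b.

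Cajal-Retzius and preplate genes mostly fell. Of 15 genes over the minimum (of 20), 9 were called lower and 2 higher (median -1.45). Ebf2, a transcription factor of these early neurons, had 59.2, 49.4 and 93.2 CPM at E11.5 and 1.68, 1.35 and 1.23 at E14.5 (log2 fold change -5.55 ± 0.25, adjusted p = 6.02e-09), and library C stood above A and B at E11.5. Reln, which encodes the secreted protein reelin that marks Cajal-Retzius cells, went the other way with 51.2, 40.8 and 67.1 CPM at E11.5 and 141, 155 and 155 at E14.5 (log2 fold change 1.57 ± 0.15, adjusted p = 3.3e-06). Trp73, a transcription factor of the same cells, had 11.9, 8.704 and 17.5 CPM at E11.5 and 6.71, 6.93 and 7.41 at E14.5 (log2 fold change -0.80 ± 0.21, adjusted p = 0.00875), which missed the threshold in a fit of all 9 libraries at 0 h (adjusted p = 0.0538). Reln and Trp73, both markers of one cell type, thus differed in direction.

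Interneurons are born in the ganglionic eminences, outside the cortex, and migrate in. Of 32 genes 17 passed the minimum, with 3 called higher and 2 lower, and of the 15 others 4 were called higher and 1 lower. Dlx1 had 8.61, 7.12 and 8.11 CPM at E11.5 and 7.05, 7.16 and 7.54 at E14.5 (log2 fold change -0.13 ± 0.12, adjusted p = 0.423), while Dlx2 had 30.2, 29.9 and 23.6 CPM at E11.5 and 9.68, 8.904 and 5.72 at E14.5 (log2 fold change -1.71 ± 0.18, adjusted p = 1.05e-05). The noncoding RNA Dlx6os1, an antisense gene with no entry in the annotation used, so that its overlap with other exons is unknown, had 1.41, 1.97 and 2.11 CPM at E11.5 and 10.2, 8.97 and 11.2 at E14.5 (log2 fold change 2.51 ± 0.17, adjusted p = 2.33e-07), and the neuregulin receptor Erbb4 had 5.12, 3.32 and 7.42 CPM at E11.5 and 18.3, 20.4 and 19.7 at E14.5 (log2 fold change 1.93 ± 0.22, adjusted p = 1.94e-05). Summed over all 32 genes, the list had 934 to 974 CPM at E11.5 and 821 to 871 at E14.5.

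Intermediate progenitors, the dividing cells between radial glia and neurons, gave no common direction. Of 23 genes over the minimum (of 26), 4 were called higher and 4 lower, with a median log2 fold change of -0.17, which was 0.00 without library B of E11.5. Eomes, the defining transcription factor, had 52.1, 53.6 and 57.6 CPM at E11.5 and 39.2, 36.3 and 31.7 at E14.5 (log2 fold change -0.50 ± 0.10, adjusted p = 0.00117). Neurog1, a proneural factor, had 2.62, 2.74 and 1.81 CPM at E11.5 and 4.14, 2.54 and 1.99 at E14.5 (log2 fold change 0.31 ± 0.30, adjusted p = 0.445). The somatostatin receptor Sstr2 had 28.9, 35.2 and 25.2 CPM at E11.5 and 128, 128 and 124 at E14.5 (log2 fold change 2.13 ± 0.11, adjusted p = 2.39e-08), and Igfbpl1 rose as well (1.49 ± 0.11, adjusted p = 5.31e-07). Dll3, a Notch ligand of cells about to differentiate, had 48.2, 58.2 and 50.9 CPM at E11.5 and 19.8, 17.9 and 16.99 at E14.5 (log2 fold change -1.42 ± 0.11, adjusted p = 4.85e-07). The list includes genes shared with newly born neurons, such as Nhlh1.

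Genes of cortical identity fell without exception among those measured. Of 13 transcription factors and signals that pattern the dorsal telencephalon (of 16), 8 were called lower, all 13 fell at any size, and the median was -1.22. Emx1 had 74.2, 83.8 and 66.9 CPM at E11.5 and 25.2, 28.3 and 19.6 at E14.5 (log2 fold change -1.54 ± 0.14, adjusted p = 2.49e-06), and Emx2 had 159, 141 and 149.9 CPM at E11.5 and 61.6, 62.9 and 67.3 at E14.5 (log2 fold change -1.22 ± 0.07, adjusted p = 7.68e-08). The largest fall was that of Dmrta1, a factor of early dorsal progenitors, with 70.1, 72.9 and 66.7 CPM at E11.5 and 3.88, 4.35 and 3.27 at E14.5 (log2 fold change -4.13 ± 0.13, adjusted p = 5.52e-10). Nr2f2, a nuclear receptor with a graded pattern across the cortex, changed by -1.81 ± 0.22 (adjusted p = 3.26e-05). The summed level of the list was 1766 to 1843 CPM at E11.5 and 781 to 860 at E14.5.

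Radial glia genes mostly fell, with exceptions. All but one of the 37 genes were in the tables and passed the minimum, and of these 36, 13 were called lower and 3 higher, 23 fell and 7 rose at any size (median -0.50). Sox2, the factor that keeps progenitors dividing, had 271, 274 and 263 CPM at E11.5 and 99.8, 127 and 129.6 at E14.5 (log2 fold change -1.08 ± 0.09, adjusted p = 1.82e-06). Pax6, a determinant of cortical radial glia, had 93.9, 78.9 and 84.2 CPM at E11.5 and 50.7, 47.7 and 49.04 at E14.5 (log2 fold change -0.72 ± 0.09, adjusted p = 3.25e-05). Sox3, a close relative of Sox2, had 278, 325 and 216 CPM at E11.5 and 74.1, 89.7 and 58.8 at E14.5 (log2 fold change -1.76 ± 0.15, adjusted p = 1.71e-06). Hopx had 272, 268 and 338 CPM at E11.5 and 44.2, 50.1 and 52.4 at E14.5 (log2 fold change -2.50 ± 0.12, adjusted p = 1.21e-08) and overlaps another gene. All 4 genes were lower in each E14.5 library.

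The 3 radial glia genes called higher were Mfge8, Tnc and Slc1a3. Mfge8, a secreted glycoprotein, had 30.9, 34.9 and 39.1 CPM at E11.5 and 184, 186 and 191 at E14.5 (log2 fold change 2.48 ± 0.10, adjusted p = 1.85e-09). Tnc, which encodes the matrix protein tenascin C, had 152, 170.3 and 163 CPM at E11.5 and 559.5, 800.5 and 692 at E14.5 (log2 fold change 2.14 ± 0.12, adjusted p = 3.43e-08). Slc1a3, the glutamate transporter GLAST, had 93.9, 98.7 and 105 CPM at E11.5 and 252, 279 and 340.5 at E14.5 (log2 fold change 1.59 ± 0.10, adjusted p = 1.02e-07). All are also expressed in glia of later stages. The study's 56 progenitor-enriched genes, chosen there from single-cell data, had 3 called higher and 9 lower, with a median of -0.32. Gnai2, a G protein subunit on that list, had 847, 964 and 879 CPM at E11.5 and 328, 394 and 316 at E14.5 (log2 fold change -1.33 ± 0.10, adjusted p = 5.12e-07).

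Genes of the early neuroepithelium and of developmental timing were mostly lower. Of 24 genes 15 passed the minimum, with 7 called lower and 1 higher (median -0.96). Crabp2, which binds retinoic acid in the cell, had 38.9, 38.8 and 53.1 CPM at E11.5 and 2.14, 1.68 and 1.798 at E14.5 (log2 fold change -4.47 ± 0.16, adjusted p = 1.29e-09). Hmga2, a chromatin protein of young progenitors, had 165, 182 and 147 CPM at E11.5 and 9.79, 15.2 and 8.32 at E14.5 (log2 fold change -3.83 ± 0.20, adjusted p = 2.21e-08). Its regulator Lin28b, which blocks maturation of the let-7 microRNAs, was below the coverage minimum with 6.14, 4.52 and 6.46 CPM at E11.5 and 0.658, 0.462 and 0.564 at E14.5 (log2 fold change -3.42 ± 0.26, adjusted p = 4.63e-07). Lin28a was at or near 0 in all 6 libraries. Fgfr2, a receptor for fibroblast growth factors, had 94, 92.2 and 88.7 CPM at E11.5 and 14.8, 13.4 and 15.1 at E14.5 (log2 fold change -2.60 ± 0.09, adjusted p = 7.91e-10). The one gene called higher, Rspo3, an enhancer of Wnt signals, had 6.102, 6.88 and 16.7 CPM at E11.5 and 169, 159 and 167 at E14.5 (log2 fold change 4.09 ± 0.31, adjusted p = 5.69e-07) and overlaps another gene. Without library C of E11.5 its log2 fold change was 4.69.

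Genes of late radial glia and of the turn to gliogenesis had a median of 0.27, which was 0.09 with a minimum of 2000 covered Ts. Of 32 genes over the minimum (of 36), 11 were called higher and 4 lower. Nfix, a nuclear factor I protein of late progenitors and neurons, had 89.8, 78.7 and 69.1 CPM at E11.5 and 509, 654 and 461 at E14.5 (log2 fold change 2.86 ± 0.13, adjusted p = 6.68e-09), and its relative Nfib had 657, 537 and 628 CPM at E11.5 and 1527, 1684 and 1579 at E14.5 (log2 fold change 1.44 ± 0.09, adjusted p = 1.05e-07). Luzp2 had 4.66, 5.87 and 6.997 CPM at E11.5 and 95.5, 85.5 and 91.3 at E14.5 (log2 fold change 3.98 ± 0.16, adjusted p = 2.52e-09). Egfr, the receptor for epidermal growth factor, had 2.58, 2.597 and 3.61 CPM at E11.5 and 26.6, 32.4 and 31 at E14.5 (log2 fold change 3.38 ± 0.17, adjusted p = 1.33e-08). Fabp7, a fatty acid binding protein of radial glia, fell (-0.76 ± 0.09, adjusted p = 2.53e-05), as did the inhibitor of differentiation Id3 (-2.72 ± 0.38, adjusted p = 9.34e-05). Id3 was highest in library C of E11.5, and without it the log2 fold change was -2.11.

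Markers of mature glia were few. Of 14 genes of astrocytes and the oligodendrocyte lineage 8 passed the minimum, 3 of which were called higher and 2 lower. Olig2, a factor of oligodendrocyte precursors and of ventral progenitors, had 36.7, 39.9 and 26.2 CPM at E11.5 and 115, 177 and 125 at E14.5 (log2 fold change 2.13 ± 0.17, adjusted p = 6.66e-07). Olig1 had 78.04, 93.6 and 71.7 CPM at E11.5 and 189, 296 and 161 at E14.5 (log2 fold change 1.50 ± 0.18, adjusted p = 3.02e-05). Pdgfra, a receptor of oligodendrocyte precursors and of meningeal fibroblasts, had 7.47, 5.43 and 7.88 CPM at E11.5 and 1.17, 1.68 and 1.42 at E14.5 (log2 fold change -2.42 ± 0.20, adjusted p = 1.08e-06). Gfap, the intermediate filament of astrocytes, was below the minimum with 0.156, 0.24 and 0.192 CPM at E11.5 and 0.679, 1.39 and 1.21 at E14.5 (log2 fold change 2.61 ± 0.40, adjusted p = 0.000189). Levels of Olig1 and Olig2 were highest in library B of E14.5.

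**Figure D3:**
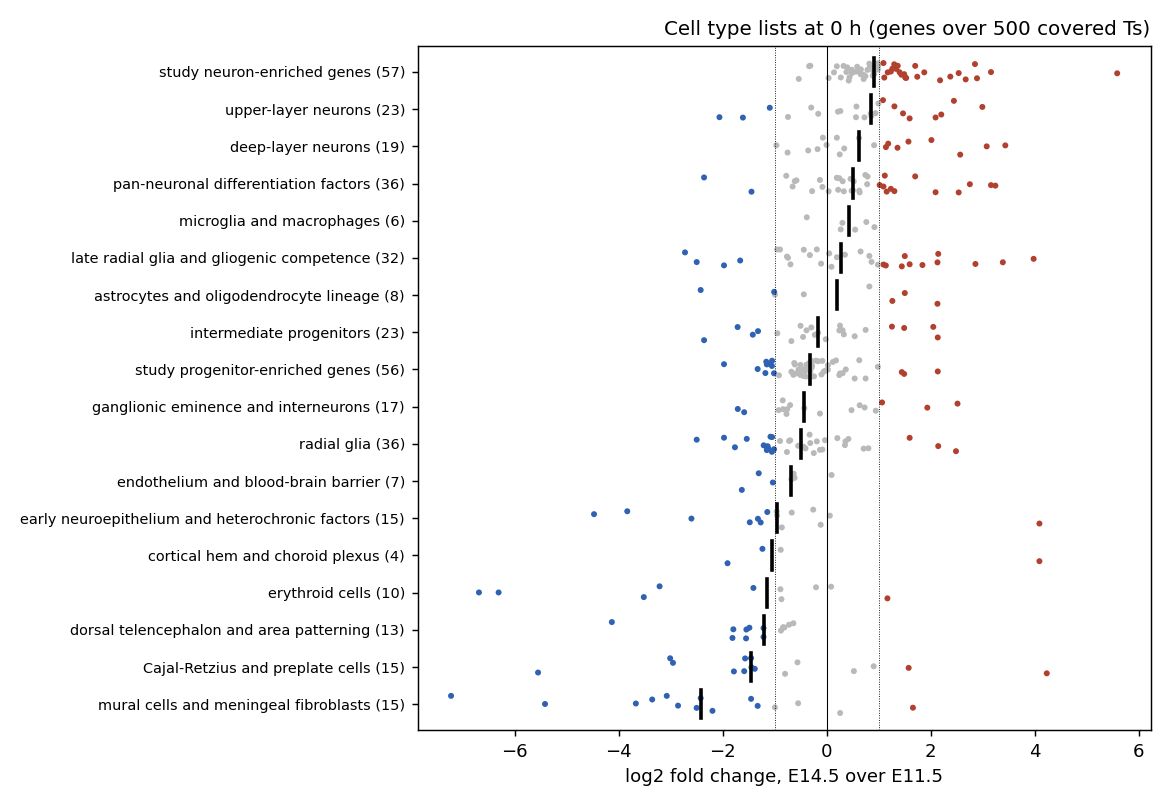
Log2 fold change of E14.5 over E11.5 for each gene of the cell type lists (those with at least 4 such genes) and of the 2 lists of the study with over 500 covered Ts in all 6 libraries (number in brackets). Each point is 1 gene, red where called higher and blue where called lower, black bars are medians and dotted lines mark a 2-fold change. The pan-neuronal, layer and study neuron lists lie to the right, at medians from 0.51 to 0.91, ganglionic eminence genes lie left of 0, and mural and meningeal, Cajal-Retzius, patterning and erythroid genes lie at the bottom, from -1.15 to -2.42.

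Genes of the cell cycle fell, or did not pass the test, in nearly all cases. DNA replication and nucleotide synthesis gave the most uniform fall of all lists with over 20 genes. All 73 genes passed the minimum, 64 fell, 0 rose and 9 did not pass the test, with a median log2 fold change of -0.59. Only 9 changed by more than 2-fold (12.3% against 5.54% of all genes). Mcm2, a subunit of the replicative helicase, had 285, 293 and 286 CPM at E11.5 and 154, 158 and 146 at E14.5 (log2 fold change -0.84 ± 0.07, adjusted p = 1.2e-06). Mcm3, another subunit, had 303, 290.1 and 308 CPM at E11.5 and 176, 176 and 192 at E14.5 (log2 fold change -0.68 ± 0.07, adjusted p = 9.96e-06). Cdc6, which loads the helicase on origins, had 46.3, 39.9 and 44.98 CPM at E11.5 and 16.7, 15.01 and 17.9 at E14.5 (log2 fold change -1.36 ± 0.11, adjusted p = 7.8e-07), and the histone chaperone Asf1b changed by -1.28 ± 0.10 (adjusted p = 7.4e-07). Gins2, which overlaps another gene, changed by -1.18 ± 0.10 (adjusted p = 8.89e-07).

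Mitotic genes had a median nearer to 0. Of 104 genes, all over the minimum, 63 fell and 0 rose, and the median was -0.34. A single gene, Mybl2, a transcription factor of the late cell cycle, was called lower, with 32.2, 35.4 and 32.4 CPM at E11.5 and 15.3, 15.8 and 14.47 at E14.5 (log2 fold change -1.07 ± 0.10, adjusted p = 2.79e-06). Ccna2, cyclin A2, had 254, 274 and 242 CPM at E11.5 and 191, 193 and 203 at E14.5 (log2 fold change -0.34 ± 0.07, adjusted p = 0.00195) and overlaps another gene. Ccnb1, cyclin B1, had 64.6, 68 and 65.9 CPM at E11.5 and 59.6, 57.8 and 64.2 at E14.5 (log2 fold change -0.10 ± 0.07, adjusted p = 0.296), so that its stages did not overlap although the test was not passed. Whether the replication and mitosis lists differ from each other was not tested.

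Regulators of the G1 phase mostly fell. Of 33 genes, 7 were called lower and 1 higher, with 21 falling and 7 rising (median -0.46). Ccnd1, cyclin D1, had 583, 576 and 591 CPM at E11.5 and 223, 375 and 256 at E14.5 (log2 fold change -0.95 ± 0.15, adjusted p = 0.000194), with library B highest at E14.5, and overlaps another gene. Ccnd3 had 141, 151 and 137 CPM at E11.5 and 54.8, 51.7 and 45.3 at E14.5 (log2 fold change -1.41 ± 0.08, adjusted p = 6.68e-08). Ccnd2, the third D cyclin, had 2143, 2039 and 2166 CPM at E11.5 and 1836, 2103 and 1991 at E14.5 (log2 fold change -0.06 ± 0.08, adjusted p = 0.607). Ccne1, cyclin E1, changed by -1.32 ± 0.10 (adjusted p = 5.47e-07). The one gene called higher was Cdk5r1, the activator of the neuronal kinase CDK5, with 97.4, 111 and 116 CPM at E11.5 and 285, 284 and 261 at E14.5 (log2 fold change 1.40 ± 0.09, adjusted p = 1.14e-07).

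Promoters of these 2 lists were read because their genes moved together. E2F factors bind short GC-rich sites in promoters of genes for DNA synthesis, and the cell cycle homology region (CHR) and the CCAAT box mark promoters of mitotic genes. Windows of 30 bases around the first match are shown for the first 4 genes of each list that had one, in capitals the E2F letters (TTTCCCGC, TTTCGCGC, TTTGCCGC or TTTGGCGC) or the CHR letters (TTTGAA or TTCGAA) on either strand. The sequences are from RefSeq on GRCm38.p6, and each is printed 5′ to 3′ on the strand of its gene.
Mcm3 (E2F, chr1:20820275-20820304, minus strand): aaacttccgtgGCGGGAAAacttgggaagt
Mcm5 (E2F, chr8:75109345-75109374, plus strand): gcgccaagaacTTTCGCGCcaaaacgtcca
Mcm6 (E2F, chr1:128359797-128359826, minus strand): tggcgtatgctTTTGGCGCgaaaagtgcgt
Mcm7 (E2F, chr5:138172030-138172059, minus strand): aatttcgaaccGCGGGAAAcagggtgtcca
Ccnb2 (CHR, chr9:70421704-70421733, minus strand): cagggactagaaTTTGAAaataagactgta
Cdk1 (CHR, chr10:69352966-69352995, minus strand): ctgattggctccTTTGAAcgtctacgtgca
Cdc20 (CHR, chr4:118437344-118437373, minus strand): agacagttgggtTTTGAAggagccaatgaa
Cdc25b (CHR, chr2:131186943-131186972, plus strand): ccgctgttatttTTCGAAtatataaggagg

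Promoters from 250 bases before to 50 after the start were searched on both strands, with the first promoter listed for a gene. The E2F letters were in 2.32% of all 27018 promoters of that table, the CHR letters in 19.4% and CCAAT in 37.9%. Of 104 mitotic genes 84 had a promoter there, and 57 of these (67.9%) held the CHR letters, 59 (70.2%) CCAAT and 48 both. Among the 57 with the CHR letters 33 fell, with a median log2 fold change of -0.29, and among the 27 without them 14 fell, with a median of -0.38. The median fall was thus not larger in the genes with these letters. Of the 73 replication genes 58 had a promoter, under 80%, so no share is read from them; 18 of the 58 held the E2F letters. A match of letters is a description, not a bound site. The 4 helicase genes shown changed by -0.68, -0.57, -0.86 and -0.47 and all fell, while of the 4 mitotic genes, at -0.22, -0.13, -0.23 and -0.21, Cdc20 fell and the others did not pass the test.

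Signalling pathways of progenitors differed in how many of their genes fell. In the Notch pathway, which holds progenitors in their state through contact with their neighbours, 7 of 31 genes were called lower and 1 higher, and 21 fell and 4 rose (median -0.38). The ligand Dll1 had 125, 119.9 and 119 CPM at E11.5 and 59.6, 66.2 and 56.98 at E14.5 (log2 fold change -0.95 ± 0.08, adjusted p = 1.78e-06), and overlaps another gene. The receptor Notch3 had 59.3, 52.2 and 71.1 CPM at E11.5 and 17.3, 18.2 and 13.98 at E14.5 (log2 fold change -1.85 ± 0.13, adjusted p = 3.38e-07). The target Hey1 had 171, 165 and 159 CPM at E11.5 and 53.7, 60.9 and 58.1 at E14.5 (log2 fold change -1.43 ± 0.08, adjusted p = 3.18e-08), and the target Hes5, which overlaps another gene, had 51.6, 58.8 and 52.6 CPM at E11.5 and 14.4, 12.4 and 12.4 at E14.5 (log2 fold change -1.97 ± 0.10, adjusted p = 2.21e-08). Ligand, receptor and target genes thus fell, and the ubiquitin ligase Neurl1b rose (1.44 ± 0.13, adjusted p = 2.72e-06).

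In the Wnt pathway 11 of 37 genes were called lower and 1 higher (median -0.62), and 21 of the 58 genes were below the coverage minimum. Wls, which carries Wnt ligands to the cell surface, had 70.8, 61.99 and 96.6 CPM at E11.5 and 12.5, 12.2 and 15.8 at E14.5 (log2 fold change -2.48 ± 0.16, adjusted p = 1.64e-07). Tcf7l1, a transcription factor that represses Wnt targets, had 23.2, 30.01 and 30.03 CPM at E11.5 and 4.203, 4.39 and 3.97 at E14.5 (log2 fold change -2.64 ± 0.14, adjusted p = 2.15e-08). Frzb, a secreted inhibitor, changed by -2.17 ± 0.14 (adjusted p = 1.01e-07). The one gene called higher was Rspo3. The ligands Wnt2b and Wnt3 were under 1 CPM in all 6 libraries.

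FGF genes went both ways. Of 23 genes, 4 were called higher and 5 lower. The receptor Fgfr1 had 306, 335 and 306 CPM at E11.5 and 304, 358 and 283 at E14.5 (log2 fold change 0.08 ± 0.09, adjusted p = 0.531), with overlap of the stages, and Fgfr2, given above, fell. Feedback inhibitors of the pathway differed as well. Dusp6, a phosphatase of the kinase ERK, had 159.6, 152 and 149.6 CPM at E11.5 and 412, 409 and 479 at E14.5 (log2 fold change 1.55 ± 0.08, adjusted p = 1.99e-08), while Spry1, another such inhibitor, had 178, 199 and 148 CPM at E11.5 and 31.3, 43.2 and 35.9 at E14.5 (log2 fold change -2.17 ± 0.13, adjusted p = 7.95e-08) and overlaps another gene. The culture medium of both stages held bFGF.

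Of 27 genes of the BMP and TGF-beta pathway with Id genes, 8 were called lower and 2 higher (median -0.58). The ligand Bmp7 had 69.2, 60.5 and 66.8 CPM at E11.5 and 16.47, 15.5 and 17.4 at E14.5 (log2 fold change -1.91 ± 0.10, adjusted p = 1.84e-08), and the signal transducer Smad3 had 119.9, 126 and 116 CPM at E11.5 and 32.6, 41.03 and 35.5 at E14.5 (log2 fold change -1.68 ± 0.09, adjusted p = 2.26e-08). The target genes Id2 and Id3 differed, with Id2 at 134, 128 and 147 CPM at E11.5 and 429.6, 340.3 and 369 at E14.5 (log2 fold change 1.49 ± 0.10, adjusted p = 1.72e-07). In the Hedgehog pathway 7 of 10 genes fell and 2 rose, and Gli3, a transcription factor of the pathway and a regulator of the dorsal telencephalon, changed by -1.21 ± 0.10 (adjusted p = 1.02e-06).

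Retinoic acid genes had the lowest median of the function lists (-1.39). Of 12 genes over the minimum (of 20), 7 were called lower and 0 higher. Besides Crabp2, Cyp26b1, the enzyme that breaks down retinoic acid, had 42.9, 42.3 and 34.1 CPM at E11.5 and 6.199, 7.32 and 6.603 at E14.5 (log2 fold change -2.51 ± 0.11, adjusted p = 7.39e-09), and Crabp1 changed by -2.50 ± 0.24 (adjusted p = 4.46e-06). In the Hippo pathway 5 of 21 genes were called lower and 1 higher. Yap1, the transcriptional coactivator of the pathway, had 149.8, 164 and 149 CPM at E11.5 and 43.8, 62.3 and 51.7 at E14.5 (log2 fold change -1.48 ± 0.11, adjusted p = 5.7e-07), and its relative Wwtr1 (TAZ) changed by -0.77 ± 0.11 (adjusted p = 0.000126). Fat4, an atypical cadherin upstream of the pathway, had 69.7, 56.7 and 79.9 CPM at E11.5 and 204, 193 and 210.1 at E14.5 (log2 fold change 1.60 ± 0.12, adjusted p = 3.38e-07).

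**Figure D4:**
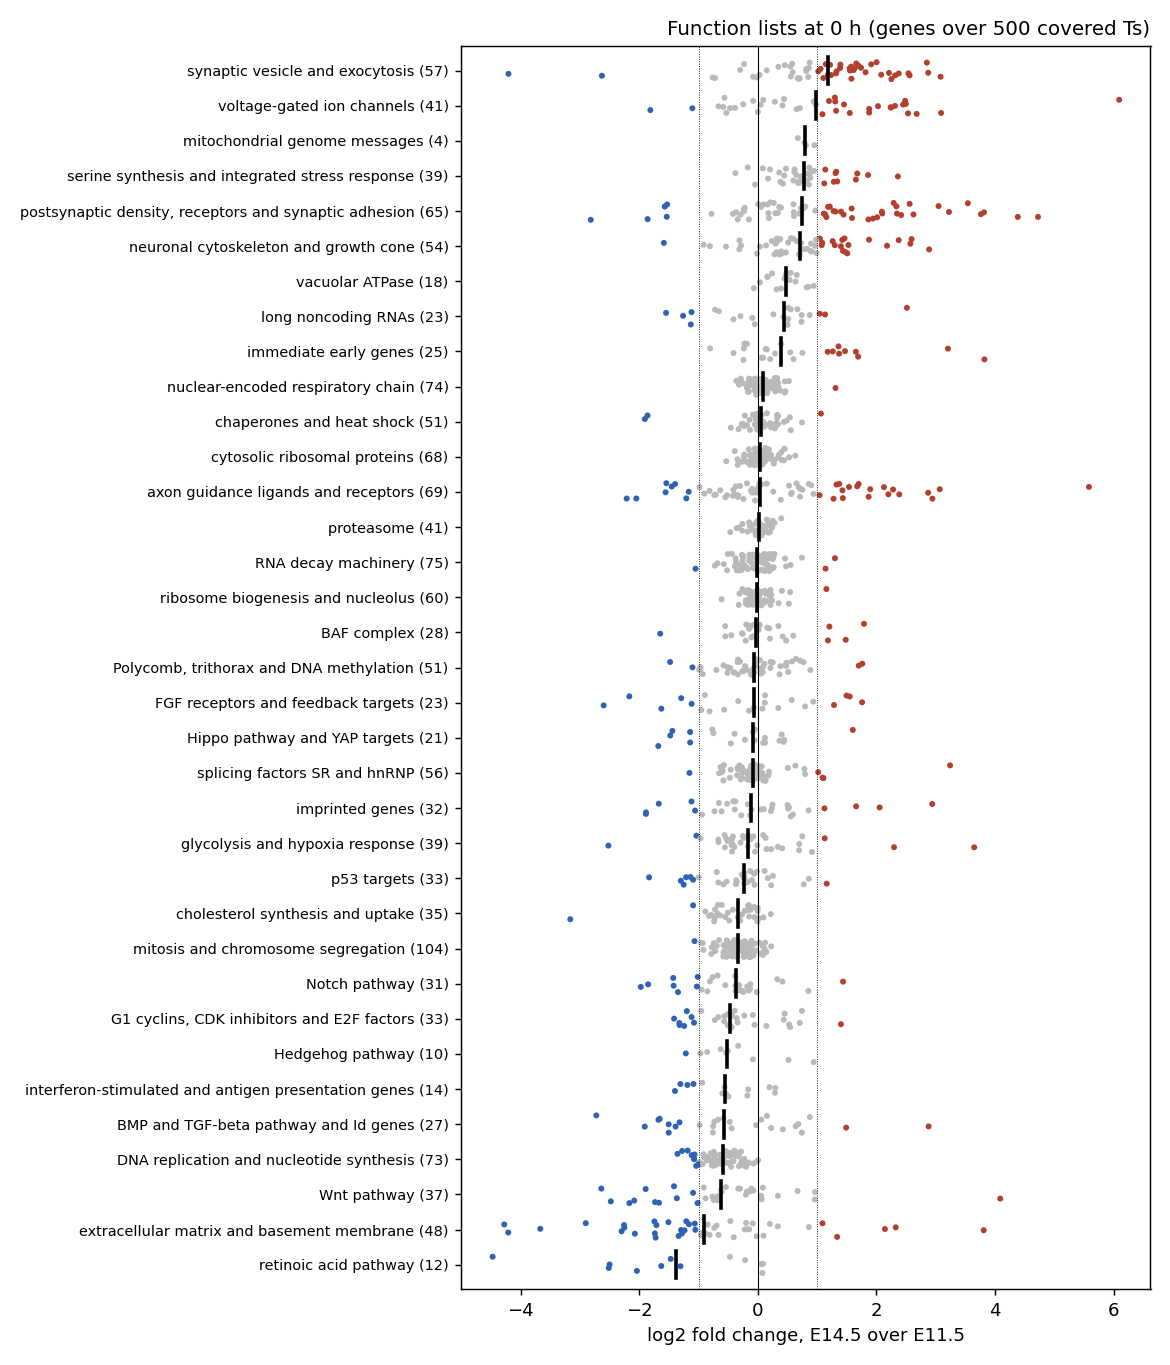
Log2 fold change of E14.5 over E11.5 for each gene of the function lists with over 500 covered Ts in all 6 libraries (number in brackets). Each point is 1 gene, red where called higher and blue where called lower, black bars are medians and dotted lines mark a 2-fold change. Synaptic and channel genes lie highest, at medians of 1.18 and 0.98, retinoic acid and matrix genes lowest, at -1.39 and -0.91, and medians of the ribosomal protein, proteasome and RNA decay lists lie close to 0.

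Genes of the extracellular matrix and basement membrane mostly fell, some of them steeply. Of 48 genes, 21 were called lower and 5 higher (median -0.91). Col4a1, a chain of basement membrane collagen, had 155, 204 and 154 CPM at E11.5 and 8.15, 8.904 and 9.099 at E14.5 (log2 fold change -4.21 ± 0.12, adjusted p = 3.47e-10), and its partner Col4a2 had 88.3, 136 and 90.2 CPM at E11.5 and 4.69, 5.71 and 5.07 at E14.5 (log2 fold change -4.28 ± 0.18, adjusted p = 3.61e-09). Nid1, which links collagen and laminin, changed by -3.67 ± 0.23 (adjusted p = 1.03e-07). Among the 5 called higher were Tnr, which encodes tenascin R, with 6.57, 4.95 and 4.46 CPM at E11.5 and 69.5, 70.4 and 77.3 at E14.5 (log2 fold change 3.81 ± 0.16, adjusted p = 3.81e-09), and Tnc, described above.

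Markers of mural cells and meningeal fibroblasts, the cells on vessels and around the brain, moved with the matrix genes. Of 40 genes 15 passed the minimum, with 11 called lower and 1 higher, and 13 of the 25 others were called lower. Their summed level over all 40 genes was 888 to 1218 CPM at E11.5 and 107 to 138 at E14.5. Col3a1, a collagen of fibroblasts, had 242, 359 and 279 CPM at E11.5 and 1.57, 1.75 and 2.04 at E14.5 (log2 fold change -7.22 ± 0.22, adjusted p = 3.85e-10), and Col1a1 had 87.2, 156 and 94.6 CPM at E11.5 and 2.63, 2.704 and 1.96 at E14.5 (log2 fold change -5.41 ± 0.24, adjusted p = 6.68e-09). Library B of E11.5 was the highest in both. The fibroblast gene Twist2 and the mural gene Kcnj8 had 0 reads in all E14.5 libraries. Dcn, a proteoglycan of fibroblasts, went the other way (1.66 ± 0.15, adjusted p = 2.51e-06). Of the 48 matrix genes 1 is also a marker on one of the lists of non-neural cells, and without it 20 of 47 were called lower (median -0.88). The part of meningeal and mural cells in the fall of matrix, retinoic acid and BMP genes was not tested.

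Red blood cell genes were lower at E14.5. Of 26 genes 10 passed the minimum, 5 of which were called lower and 1 higher, and 6 of the others were called lower. The summed level ran from 2118 to 4240 CPM at E11.5 and from 322 to 403 at E14.5. Hbb-y, an embryonic globin, had 1142, 1512 and 2582 CPM at E11.5 and 20.1, 10.98 and 18.9 at E14.5 (log2 fold change -6.68 ± 0.34, adjusted p = 1.64e-08). Hba-x, the embryonic alpha-like globin, had 207, 289 and 451 CPM at E11.5 and 5.01, 3.36 and 3.01 at E14.5 (log2 fold change -6.31 ± 0.30, adjusted p = 1.11e-08). Hba-a1, an adult alpha globin, had 228, 312 and 471 CPM at E11.5 and 32.5, 25.6 and 27.1 at E14.5 (log2 fold change -3.52 ± 0.22, adjusted p = 1.12e-07), and Hba-a2 is nearly identical to it, so the split of reads between them is uncertain. Library C had the highest level of Hbb-y, Hba-x and Hba-a1 at E11.5, and at E14.5 these were far lower in each library. The adult beta globin Hbb-bs, which is outside the rule for named genes, changed less (-0.87 ± 0.21, adjusted p = 0.00515). Gata1, Rhag and Hemgn had no reads in any E14.5 library.

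Few endothelial and microglial genes passed the minimum. Of 34 endothelial and barrier genes 7 passed the minimum, with 3 called lower and 0 higher, and these 7 include genes that other cells express, such as the glucose transporter Slc2a1 with 116, 121 and 121 CPM at E11.5 and 59.1, 53.2 and 54.3 at E14.5 (log2 fold change -1.04 ± 0.08, adjusted p = 3.79e-07). The defining genes Cldn5 and Pecam1 were under 1 CPM in all 6 libraries, and Slco1a4 had no reads. Of the others 2 were called higher and 5 lower. The summed level was 502 to 549 CPM at E11.5 and 459 to 466 at E14.5. One gene of this list, the thyroid hormone and organic anion transporter Slco1c1, named after its values were seen, had 0.156, 0.289 and 0.308 CPM at E11.5 and 80.9, 68.9 and 95.6 at E14.5 and failed the coverage minimum at E11.5 (log2 fold change 8.60 ± 0.21, adjusted p = 1.4e-10).

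Of 29 microglial genes 6 passed the minimum, 2 of these rose, 0 fell and none was called by the 2-fold rule, while of the others 3 were called higher and 1 lower, and the summed level was 36.5 to 53.3 and 46.4 to 56.9 CPM. Csf1r, the receptor that microglia need to survive, had 2.93, 3.799 and 3.999 CPM at E11.5 and 4.12, 3.496 and 5.07 at E14.5 (log2 fold change 0.27 ± 0.19, adjusted p = 0.279) and overlaps another gene. Hem and choroid plexus genes had 4 of 22 over the minimum, of which Bmp7 and Foxj1 were called lower and Rspo3 higher, and 6 of the others were called lower. Their summed level was 104 to 146 CPM at E11.5 and 185 to 195 at E14.5. Rspo3, which overlaps another gene, alone made up 6.1 to 16.7 CPM of this sum at E11.5 and 159 to 169 at E14.5. Ttr, the transthyretin of choroid plexus, had 1.49 to 1.65 CPM at E11.5 and at most 0.033 at E14.5. Of 19 genes of the surface ectoderm 1 passed, Perp, which fell (-1.25 ± 0.23, adjusted p = 0.000703), and the summed level was 16.51 to 21.1 and 4.18 to 4.39. None of 5 genes linked to sex (Y-linked genes and Xist) passed the minimum.

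Genes of basic cell machinery were called rarely, and a p that misses the threshold does not show that their levels were equal. Of 68 cytosolic ribosomal protein genes (of 81), 0 were called, 8 rose and 3 fell at any size, and 57 did not pass the test. Their median of 0.04 turned to -0.01 with upper-quartile scaling. Rpl4 had 879, 893 and 815 CPM at E11.5 and 843, 874 and 944 at E14.5 (log2 fold change 0.07 ± 0.07, adjusted p = 0.448). Many of these genes have processed pseudogenes, and Rpl3, at 4.78 to 9.58 CPM, is one whose reads the counting may have split. Proteasome genes (41) had 0 called, 4 rising and 3 falling, with a median of 0.02 that turned to -0.03 with upper-quartile scaling. Of 60 genes for ribosome biogenesis 1 was called, and this was Mycn, a transcription factor that drives growth, with 67.3, 62.3 and 57.1 CPM at E11.5 and 139.6, 140.4 and 115 at E14.5 (log2 fold change 1.16 ± 0.09, adjusted p = 5.85e-07).

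RNA decay genes were called rarely too, while the share of splicing factors called higher was near that of all genes. Of 75 genes for RNA decay 2 were called higher (2.67%) and 1 lower (1.33%), with 48 not passing the test. Elavl2, an RNA-binding protein of neurons that stabilises messages, had 84.5, 87.3 and 87.8 CPM at E11.5 and 214, 191 and 220.2 at E14.5 (log2 fold change 1.30 ± 0.08, adjusted p = 6.38e-08), and Smg6, the endonuclease of nonsense-mediated decay, changed by 1.14 ± 0.09 (adjusted p = 1.08e-06). Zfp36l1, which promotes decay of messages with AU-rich elements, had 239.9, 228 and 219.7 CPM at E11.5 and 102, 126 and 88.2 at E14.5 (log2 fold change -1.05 ± 0.11, adjusted p = 1.02e-05), and overlaps another gene. Cnot1, the scaffold of the main deadenylase, had 361, 277 and 327 CPM at E11.5 and 267, 287 and 328 at E14.5 (log2 fold change -0.08 ± 0.11, adjusted p = 0.602). Of 56 splicing factors 4 were called higher (7.14% against 6.28% of all genes), Rbfox1 and Rbfox2 among them. Only 1 was called lower (1.79% against 5.54%), and at any size 16 fell and 8 rose.

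In energy metabolism few nuclear genes were called. Of 74 nuclear genes of the respiratory chain 1 was called, Cox7b, with 85.9, 93.1 and 134 CPM at E11.5 and 269.9, 225 and 259 at E14.5 (log2 fold change 1.31 ± 0.15, adjusted p = 1.6e-05), and 51 did not pass the test (median 0.09). Of 13 messages of the mitochondrial genome on the list 6 were analysed here and 4 passed the minimum. These 4 rose, with a median of 0.80, while mt-Nd3, another subunit message of complex I and below the minimum, had 1.96, 2.16 and 0.923 CPM at E11.5 and 1.74, 1.32 and 1.88 at E14.5 (log2 fold change -0.03 ± 0.29, adjusted p = 0.951). mt-Nd5, a subunit of complex I, had 474, 397 and 543 CPM at E11.5 and 814, 786 and 805 at E14.5 (log2 fold change 0.81 ± 0.11, adjusted p = 5.82e-05). Of 18 genes of the vacuolar ATPase, the proton pump of lysosomes and synaptic vesicles, 14 rose and 0 fell (median 0.48), with 0 past 2-fold. Atp6ap1, an accessory subunit, had 82.1, 84.9 and 90.4 CPM at E11.5 and 114, 109.8 and 121 at E14.5 (log2 fold change 0.48 ± 0.07, adjusted p = 0.000193).

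Genes of glycolysis and the response to low oxygen were mixed, with 10 of 39 rising and 16 falling, where 27.1% of all genes rose and 24.7% fell. Only 3 were called higher (7.69% against 6.28% of all genes) and 2 lower (5.13% against 5.54%), near the shares of all genes. Eno2, the neuronal enolase, had 15.7, 13.1 and 16.99 CPM at E11.5 and 74.8, 66.7 and 78.8 at E14.5 (log2 fold change 2.30 ± 0.12, adjusted p = 1.8e-08), and Ndrg1, which low oxygen induces, had 11.3, 11.97 and 7.34 CPM at E11.5 and 130.4, 113 and 117 at E14.5 (log2 fold change 3.65 ± 0.17, adjusted p = 8.28e-09). Epas1, a transcription factor of that response, fell (-2.52 ± 0.20, adjusted p = 7.98e-07). Cholesterol genes fell, 19 of 35 with 1 rising (median -0.34). Hmgcs1, an early enzyme of synthesis, had 3117, 2678 and 2626 CPM at E11.5 and 1550.5, 1655 and 1948 at E14.5 (log2 fold change -0.68 ± 0.10, adjusted p = 0.000132), and overlaps another gene.

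Serine synthesis and the integrated stress response, a programme driven by the transcription factor ATF4, rose in 33 of 39 genes and fell in 1, with 10 called higher and a median of 0.78. Atf4 itself had 364, 337 and 348 CPM at E11.5 and 586, 565 and 586 at E14.5 (log2 fold change 0.78 ± 0.07, adjusted p = 2.48e-06). Chac1, a target that breaks down glutathione, had 10.9, 16.3 and 11.8 CPM at E11.5 and 70.1, 64.4 and 58.3 at E14.5 (log2 fold change 2.36 ± 0.15, adjusted p = 9.14e-08). Slc7a3, a transporter of cationic amino acids, had 37.7, 46.4 and 25.1 CPM at E11.5 and 111, 108 and 120.2 at E14.5 (log2 fold change 1.68 ± 0.17, adjusted p = 6.22e-06). Aldh1l2, a mitochondrial enzyme of folate metabolism, changed by 1.86 ± 0.15 (adjusted p = 7.78e-07) and overlaps another gene. Since all cells were dissociated and cultured, with trypsin times that differ by stage, handling and stage cannot be told apart for these genes.

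Immediate early genes, which nerve activity and handling of cells induce, had 9 of 25 called higher and 0 lower (median 0.39). Nr4a3, a nuclear receptor, had 10.9, 12.9 and 13.5 CPM at E11.5 and 151, 182 and 161 at E14.5 (log2 fold change 3.82 ± 0.11, adjusted p = 3.4e-10). Egr1, a zinc-finger factor, had 73.7, 78.4 and 63.1 CPM at E11.5 and 218, 259 and 179 at E14.5 (log2 fold change 1.69 ± 0.12, adjusted p = 3.37e-07). Fos had 9.31, 9.33 and 10.4 CPM at E11.5 and 15.3, 16.6 and 14.4 at E14.5 (log2 fold change 0.75 ± 0.11, adjusted p = 0.000163). Of 33 targets of p53 6 were called lower and 1 higher, and the inhibitor of the cell cycle Cdkn1a had 62.7, 69.8 and 117 CPM at E11.5 and 60.4, 83.1 and 45.9 at E14.5 (log2 fold change -0.36 ± 0.24, adjusted p = 0.254). Of 51 chaperones 14 rose and 6 fell, where 27.1% of all genes rose and 24.7% fell. The 2 called lower (3.92% against 5.54% of all genes) were Bag3, with 88.1, 83.05 and 81.3 CPM at E11.5 and 17.4, 24.6 and 18.2 at E14.5 (log2 fold change -1.91 ± 0.13, adjusted p = 1.64e-07), and Hspb8. Of 14 interferon and antigen presentation genes 4 were called lower and 0 higher, among them H2-K1, a class I molecule, at -1.31 ± 0.17 (adjusted p = 6.32e-05).

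Genes of chromatin complexes were set beside the shares of all genes, 6.28% called higher and 5.54% called lower. Of 28 genes of the BAF remodelling complex 4 were called higher (14.3%) and 1 lower (3.57%). Actl6b, the subunit of the neuronal form, had 6.34, 9.57 and 9.96 CPM at E11.5 and 32.8, 29.5 and 24 at E14.5 (log2 fold change 1.79 ± 0.17, adjusted p = 4.61e-06), and Ss18l1, another subunit of that form, had 38.96, 36.4 and 40.7 CPM at E11.5 and 101, 95.05 and 102 at E14.5 (log2 fold change 1.48 ± 0.09, adjusted p = 6.9e-08). The ATPase Smarca2 had 39.5, 38.2 and 41.6 CPM at E11.5 and 92.6, 83.8 and 96.8 at E14.5 (log2 fold change 1.21 ± 0.09, adjusted p = 4.16e-07), while the other ATPase, Smarca4, had 645, 622 and 612 CPM at E11.5 and 526, 577 and 525 at E14.5 (log2 fold change -0.13 ± 0.07, adjusted p = 0.175). Among 51 Polycomb, trithorax and DNA methylation genes 2 were called higher and 2 lower (3.92% each), both below the shares of all genes. Ezh1 rose (1.70 ± 0.15, adjusted p = 1.9e-06) and Ezh2, the other histone methyltransferase of Polycomb complex 2, fell (-0.30 ± 0.07, adjusted p = 0.00369). The DNA methyltransferase Dnmt3b changed by -1.48 ± 0.19 (adjusted p = 4.12e-05).

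Imprinted genes, expressed from one parental copy, moved in either direction. Of 32 genes over the minimum (of 43), 4 were called higher and 5 lower. Nnat, which encodes neuronatin, had 899, 1023 and 993 CPM at E11.5 and 8094, 7399.8 and 5981 at E14.5 (log2 fold change 2.94 ± 0.12, adjusted p = 3.18e-09), and Blcap, in whose intron Nnat lies, had 55.4, 65.6 and 57.8 CPM at E11.5 and 256, 229 and 223 at E14.5 (log2 fold change 2.05 ± 0.09, adjusted p = 4.66e-09). Mest had 4155, 4362 and 4193 CPM at E11.5 and 1058, 1181 and 1065 at E14.5 (log2 fold change -1.89 ± 0.08, adjusted p = 4.84e-09) and overlaps another gene. Peg3, a zinc-finger factor, had 511, 411 and 514 CPM at E11.5 and 126, 118 and 127 at E14.5 (log2 fold change -1.89 ± 0.10, adjusted p = 1.73e-08), and the retrotransposon-derived Peg10 changed by -1.67 ± 0.08 (adjusted p = 1.16e-08). The maternally expressed RNA H19 changed by -1.12 ± 0.16 (adjusted p = 0.000115). Genes expressed from the paternal copy thus moved both ways, Nnat up and Mest, Peg3 and Peg10 down. Of 23 long noncoding RNAs 3 were called higher and 4 lower, and Mir9-3hg, the host of a miR-9 precursor, had 147, 162 and 124 CPM at E11.5 and 60.1, 62.5 and 49.3 at E14.5 (log2 fold change -1.26 ± 0.11, adjusted p = 1.78e-06).

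Genes on none of the 55 lists made up the remaining calls. Enc1, an actin-binding protein of neurons, had 373, 369.9 and 382 CPM at E11.5 and 1929, 1725 and 1749.9 at E14.5 (log2 fold change 2.33 ± 0.08, adjusted p = 8.79e-10). Nell2, a secreted glycoprotein of neurons, had 152, 164 and 168 CPM at E11.5 and 745, 731 and 772 at E14.5 (log2 fold change 2.27 ± 0.08, adjusted p = 7.47e-10). Opcml, an adhesion molecule anchored in the membrane, had 1.56, 1.78 and 3.23 CPM at E11.5 and 118, 117 and 124 at E14.5 (log2 fold change 5.82 ± 0.19, adjusted p = 5.64e-10). Tcf3, the partner of basic helix-loop-helix factors, had 397, 395 and 339 CPM at E11.5 and 184, 202 and 156 at E14.5 (log2 fold change -1.01 ± 0.10, adjusted p = 5.13e-06), and Fjx1, a secreted protein linked to Fat signalling, had 244, 274 and 236 CPM at E11.5 and 96.7, 108 and 84.6 at E14.5 (log2 fold change -1.28 ± 0.10, adjusted p = 7.27e-07). The large zinc-finger protein Hivep2 changed by 4.09 ± 0.09 (adjusted p = 1.23e-10) and the neuronal nitric oxide synthase Nos1 by 4.96 ± 0.22 (adjusted p = 6.68e-09).

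Some unlisted genes have levels that need care. Gm42418 had 4582, 3862 and 9482 CPM at E11.5 and 2511, 3189 and 2253 at E14.5 (log2 fold change -1.12 ± 0.27, adjusted p = 0.00509), is annotated over ribosomal RNA sequence and overlaps another gene, and was highest in library C of E11.5. In the libraries of both stages taken at 2 h of chase its log2 fold change was 2.02, opposite in sign, and those of Mir6236, Gm15564 and Gm23935, which fell at 0 h, were 1.42, 1.18 and 0.64. The pseudogene Rps3a3 had 88.6, 73.7 and 64.6 CPM at E11.5 and 2.76, 3.66 and 3.01 at E14.5 (log2 fold change -4.34 ± 0.16, adjusted p = 1.32e-09), and reads of a ribosomal protein pseudogene can come from its parent gene.

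Families were also read off the gene symbols, after values had been seen, for all 115 symbol stems with at least 10 protein-coding genes over the minimum. The lowest median was that of the 18 genes starting with Col, 14 of which were called lower and 0 higher (median -2.13). All are collagens except Col4a3bp, a lipid transfer protein, and Col5a3 was the one that did not pass the test (-0.07). The Sox family of transcription factors split, with Sox2, Sox3, Sox9, Sox13 and Sox21 called lower and Sox4, Sox5, Sox8 and Sox11 rising by less than 2-fold. At the other end, all 13 Pcdhb genes, the beta protocadherins of neuronal self-recognition, rose, 8 of them past 2-fold (median 1.17). The 312 Zfp genes, mostly zinc-finger transcription factors, gave 162 rising and 39 falling, with a median of 0.34. Over all genes 27.1% rose and 24.7% fell. Only 17 of the 312 were called higher and 7 lower, beside 6.28% and 5.54% of all genes, so most of the rises were below 2-fold.

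Called genes differed in their span on the genome, which the fit did not use. The median span was 55.0 kb for 767 protein-coding genes called higher, 30.9 kb for 655 called lower and 25.7 kb for the other 9564. With the genes split into 10 classes of near equal size by span, 20.7% were called higher and 11.3% lower in the class with the longest, from 144.5 kb upwards. In the class with the shortest, up to 5.2 kb, the shares were 5.64% and 5.73%. Exon lengths differed less, with medians of 5897, 5022 and 4771 bases. Longer exons carry more reads, and the part of exon length in these shares was not tested.

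**Figure D5:**
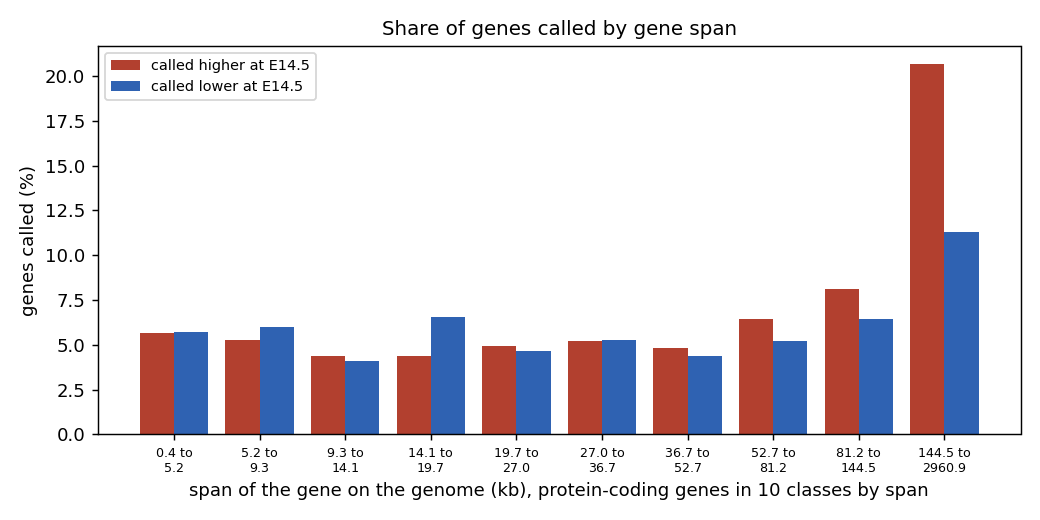
Share of protein-coding genes called higher (red) and lower (blue) at E14.5, in percent (vertical axis), in 10 classes of the 10986 genes by span on the genome in kb (horizontal axis). The bars stay between 4.10 and 8.11% in the first 9 classes and reach 20.7% and 11.3% in the longest.

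The label gave a second readout of the same genes that the calls did not use. Conversion rates at 0 h, the share of covered Ts read as C after 20 h of labelling, had a median over the genes called higher of 1.00, 0.935 and 1.32% in the E11.5 libraries and of 1.07, 1.12 and 1.03% in those of E14.5. For the genes called lower the medians were 1.13, 1.05 and 1.47%, and 1.20, 1.34 and 1.09%. In each of the 6 libraries the median was thus lower for the genes called higher. For the other 11295 genes it was 1.10, 1.02 and 1.45%, and 1.12, 1.21 and 1.04%. These medians describe genes of one library, which are not independent, and libraries differed among themselves by more than the classes did.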

How the data were processed

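RNA was sequenced with a stranded messenger RNA kit after alkylation of 4sU. As the methods of the study state, the authors mapped reads to mm10 and counted them with SlamDunk 0.4.3 and GENCODE release 24. How reads with several mapping places or read strand were treated is not given in the sources used here. The deposited tables hold, per gene, covered-T counts (T positions covered by reads, summed), CPM and a conversion rate (a fraction), with no replicates pooled. Of the deposited CPM values, 100% gave whole reads within 0.01 reads. No column of per-sample values was without a sample.

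Covered-T counts of genes with more than 10 covered Ts in all 6 libraries were fitted with edgeR 4.0.16 in R 4.3.3 (TMM scaling, quasi-likelihood test, no covariates, Benjamini-Hochberg adjustment over 18856 genes). Standard errors were derived from that test, as the size of the log2 fold change divided by the square root of its F statistic. Since 1 read covers many Ts, these counts are not independent molecules, and the spread is taken from the pools. The script was tested on simulated data with known changes. Python 3.11.15 with numpy 2.4.6, pandas 2.3.3 and matplotlib 3.10.9 was used for lists and plots. The 12810 genes and the 55 lists were chosen with earlier results of these data known. Named genes are, for each list, its first 2 and up to 3 called genes with the largest rise and the largest fall, the 10 largest changes in each direction without overlap of the stages, and the 10 unlisted called genes with most reads per kb in each direction. Genes named to complete a count, Hbb-bs, Slco1c1, genes quoted at or near 0 and symbol families were chosen after their values were seen. Library letters were used as a block only as an alternative. Other alternatives were DESeq2 1.42.0, upper-quartile scaling, other filters, recovered reads, a threshold test, all 9 libraries at 0 h, the libraries at 2 h and leaving out each library. Some genes that the rule names are not reported here. Annotation came from GENCODE release M21 where 1 entry matched the name.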

Additional observations from a re-analysis of the deposited data

How the results depend on the processing

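The counts of genes called and of genes passing the test kept to within 1.5 times of those reported in 59 of 62 recomputed counts. The 3 others come from stricter rules: among the 10371 genes with more than 2000 covered Ts in all 6 libraries 510 were called higher and 418 lower, and a test against a 2-fold change itself (glmTreat) called 400 lower, beside 545 higher. Leaving out 1 library at a time gave 789 to 876 genes called higher and 702 to 796 called lower, with 2969 to 3244 rising and 2661 to 2988 falling at any size. DESeq2 called 803 higher and 713 lower, upper-quartile scaling 770 and 785, with the median of all genes at -0.05, and the libraries at 2 h of chase 794 and 759. At any size, more genes fell than rose with upper-quartile scaling (3081 rising, 3625 falling). The same held when only genes over 500 covered Ts were fitted (3386 and 3493). In the other fits with counts at any size more genes rose than fell.

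With the library letter as a replicate block, 808 genes were called higher and 716 lower, 3499 rose and 3196 fell. Libraries of the same letter did not deviate together for each letter (correlation across genes -0.18 for A, 0.17 for B and 0.12 for C), so the letters were not taken to pair the stages.

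Of 4438 values of named genes under the alternatives, 4307 kept their side of the threshold, 110 missed a threshold they had passed and 17 passed one they had missed. Turns of sign were counted only for genes that had passed the test, and there were 4. Those 4 were at 2 h of chase, where the log2 fold change was 2.02 for Gm42418 (adjusted p = 0.00807), 1.42 for Mir6236 (0.015), 1.18 for Gm15564 (0.0278) and 0.64 for Gm23935 (0.146). The cause was not tested. Of 863 list medians, 88 moved by more than the spread between libraries. Genes with few reads are limited by depth, more so at E11.5 than at E14.5.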
